A study of Mus musculus with 6 samples.

Results

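The receptor-type protein tyrosine phosphatases examined here were Ptprc, which encodes CD45, and Ptpra, Ptpre, Ptprg, Ptprj, Ptprk, Ptprm, Ptpro and Ptprs, together with Ptprcap, which encodes a small transmembrane partner of CD45 and is not itself a phosphatase. These 10 genes were taken by name from 22180 genes that had a probe with a single gene symbol. Each of the 10 had 1 such probe. Levels are log2 expression values from 6 arrays, 3 of YFP-positive and 3 of YFP-negative bone marrow cells of the LSK phenotype, that is, cells sorted as negative for lineage markers and positive for Sca-1 and Kit. All mice were C57Bl6, carried the transgene Tg(Cdh5-Cre/ERT2) and the Rosa 26 YFP reporter, and received tamoxifen on postnatal days 1, 2 and 3, so that both populations shared genotype, drug and age. Marrow was taken at postnatal day 27, 26 days after the first induction. The Cdh5 promoter drives Cre in endothelium, and YFP marks a cell in which Cre was active as well as its descendants. The labels do not say whether replicates were separate animals, so the p-values rest on the spread of these samples alone, part of which may be technical. Arrays are numbered by their replicate number.

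Receptor tyrosine phosphatases remove phosphate from tyrosine residues of proteins at the cell membrane and oppose or, by removing an inhibitory phosphate, activate tyrosine kinases. CD45 is the abundant phosphatase of nearly all nucleated blood cells, where it acts on the Src family kinases, and mature endothelium does not make it. Other members carry adhesion-like outer parts: PTPRK and PTPRM bind copies of themselves on neighbouring cells and act at cell contacts, and PTPRM is known from vascular endothelium.

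Among the 10 genes, Ptprk, Ptprm and Ptprg rose in YFP-positive cells, by 19.4-fold, 10.6-fold and 2.70-fold. The call of Ptprg depended on single arrays. That call was lost in the unmoderated model (adjusted p = 0.123) and with the replicate number as a block (adjusted p = 0.065, limma). None of the 10 passed limma's test as lower. By limma's unadjusted p (under 0.05) 4 did so, beside 2093 of all 22180 genes. In either direction, 3820 of all genes had an unadjusted p under 0.05. After adjustment in the unmoderated model 0 of the 10 were lower. Ptprc was low on 2 of the 3 YFP-positive arrays and not on YFP-positive replicate 3. Over all 22180 genes, 4.84% passed limma's test at an adjusted p of 0.05, with 2.88% higher and 1.96% lower in YFP-positive cells. The median difference was -0.35 over the 10 genes and -0.01 over all genes, on the log2 scale and as YFP-positive minus YFP-negative, which is the direction of every difference below. These are bulk samples, in which fewer cells of a type and less RNA per cell cannot be told apart.

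Markers of other cells moved with the populations. Of 14 endothelial markers, 12 rose and 0 fell (6 passed in the unmoderated model), and the mean level of the list was 8.49 to 9.17 on YFP-positive arrays, against 4.52 to 5.18 on YFP-negative arrays. Of 20 leukocyte markers, 2 fell, Vav1 and Fermt3 (1 passed in the unmoderated model), and the mean level was 6.01, 6.05 and 8.10 on YFP-positive arrays 1, 2 and 3, against 7.92 to 8.20 on YFP-negative arrays. Of 14 neutrophil markers, 0 passed limma's test and 0 passed in the unmoderated model. Their median difference was 0.99, and 3 of the 14 were below 0, of which 2 were lower by the unadjusted p (under 0.05). Their mean level was 7.94, 8.48 and 9.83 on YFP-positive arrays 1, 2 and 3, against 6.97, 7.51 and 9.61 on YFP-negative arrays 1, 2 and 3, so replicate 3 was the highest of each population. Of 9 genes of the LSK gate and of stem and progenitor cells, 6 fell, and 1 passed in the unmoderated model. Those that fell were Flt3 (18.0-fold), Cd48 (13.5-fold), Cd34, Hlf, Meis1 and Kit, the receptor by which the cells were sorted. Slamf1, Procr and Mecom did not pass, with differences of -0.10, -0.03 and -1.05 (adjusted p = 0.796, 0.970 and 0.139, limma). Ly6a of Sca-1 had no probe with a single symbol. Lists of other cell types moved less as a whole, although single genes in them shifted. Of 9 macrophage genes 1 rose, Mertk (1.74 ± 0.34, adjusted p = 0.046, limma), with 0 past the unmoderated model, while C1qa, C1qb and C1qc differed by -0.12 to 0.20 and did not pass. Of 7 B lymphocyte genes 1 fell, Cd79b (3.99-fold lower, adjusted p = 0.0031, limma, and past the unmoderated model). Of 7 T lymphocyte and natural killer, 5 megakaryocyte and erythroid and 8 stromal genes 0 passed limma's test, with 2, 1 and 3 under 0.05 by the unadjusted p and 0 past it in the unmoderated model for each list. Of these, Nkg7 was lower (4.59-fold). Cd3e (1.33-fold), Epor (2.58-fold) and the stromal genes Cxcl12 (3.54-fold), Lepr (3.65-fold) and Dcn (1.39-fold) were higher. The part of any of these cells in the results below was not tested.

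**Figure D1:**
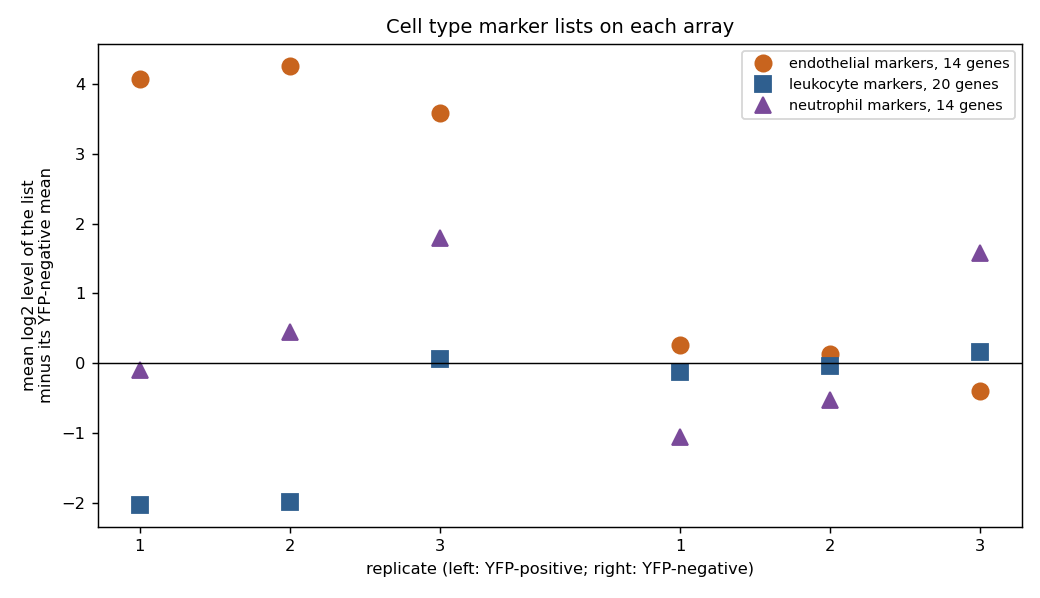
Mean log2 level of 14 endothelial, 20 leukocyte and 14 neutrophil marker genes on each array, minus the mean of the same list over the YFP-negative arrays; 1 symbol is 1 list on 1 array. Endothelial markers are 3.58 to 4.26 higher on every YFP-positive array, leukocyte markers stand at -2.03 and -1.99 on YFP-positive replicates 1 and 2 and at 0.06 on replicate 3, and neutrophil markers are highest on replicate 3 of both populations.

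PTPRK and PTPRM belong to the subfamily with a MAM domain, whose outer parts adhere to the same protein on the next cell, and both genes were higher on every YFP-positive array than on any YFP-negative array. Ptprk measured 8.39, 8.44 and 7.43 on YFP-positive arrays 1, 2 and 3, against 3.81, 3.98 and 3.63 on YFP-negative arrays 1, 2 and 3. All YFP-negative values lay close to the median of all probes (3.65), and YFP-positive replicate 3 was the lowest of its population. The difference of 4.28 ± 0.29 (SE) passed limma's test (adjusted p = 0.00144). Ptprm measured 7.26, 6.88 and 6.81 in YFP-positive cells, against 4.27, 3.39 and 3.09 in YFP-negative cells. Here the YFP-negative arrays spread more widely, with an SD of 0.61, than the YFP-positive arrays, with an SD of 0.24. Its difference was 3.40 ± 0.32 (adjusted p = 0.00441, limma). No detection calls were used, so levels near or below the median of all probes could not be told from background. Both folds may therefore understate the change. Both genes kept their calls in all 6 fits that left out 1 array, and in the unmoderated model Ptprk kept its call (adjusted p = 0.0397) and Ptprm did not (adjusted p = 0.0694). Ptpru, of the same subfamily, measured 3.76 ± 0.20 in YFP-positive cells and 3.48 ± 0.11 in YFP-negative cells (SD, n = 3 each) and did not pass (adjusted p = 0.389, limma). Its relative Ptprt had no probe with a single symbol.

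Ptprg encodes a phosphatase with a carbonic anhydrase-like outer domain that binds contactins. It measured 5.09, 5.03 and 4.39 on YFP-positive arrays 1, 2 and 3, against 3.48, 3.22 and 3.51 on YFP-negative arrays 1, 2 and 3. The populations did not overlap, and as for Ptprk the lowest YFP-positive array was replicate 3. The difference was 1.43 ± 0.22 (adjusted p = 0.0204, limma), with a 95% interval of 0.91 to 1.96. All YFP-negative values lay below the median of all probes (3.65), so this size may understate the change. The call was lost without YFP-positive replicate 1 or 2 and without each YFP-negative array (adjusted p = 0.0595 to 0.0814, limma). It was also lost in the unmoderated model (adjusted p = 0.123) and with the replicate number as a block (adjusted p = 0.065, limma). It held without YFP-positive replicate 3 (adjusted p = 0.00557, limma). Ptprz1, the other member with such a domain, stood below the median of all probes in both populations, at 2.44 ± 0.06 and 2.41 ± 0.06 (SD, n = 3 each; adjusted p = 0.932, limma).

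For Ptprk, Ptprm and Ptprg, the 3 genes called higher, the 250 bases before the most upstream start in a RefSeq promoter table (build GRCm38.p6) are shown. RefSeq's span of a gene can begin further upstream than that start: 113 of the 250 bases of Ptprg and 32 of those of Ptprm lay inside the span, and 0 of those of Ptprk. The sequences are written 5′ to 3′ on the strand of the gene, with capitals marking GAGGAA or AGGAAG on either strand, letters recognised by ETS transcription factors such as PU.1.
Ptprk, chr10:28074570-28074819, plus strand: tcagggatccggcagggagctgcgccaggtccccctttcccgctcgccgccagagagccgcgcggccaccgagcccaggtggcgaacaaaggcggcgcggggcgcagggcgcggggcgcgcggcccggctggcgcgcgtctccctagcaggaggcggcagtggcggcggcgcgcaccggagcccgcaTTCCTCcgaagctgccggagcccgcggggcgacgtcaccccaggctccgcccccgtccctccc
Ptprm, chr17:67354460-67354709, minus strand: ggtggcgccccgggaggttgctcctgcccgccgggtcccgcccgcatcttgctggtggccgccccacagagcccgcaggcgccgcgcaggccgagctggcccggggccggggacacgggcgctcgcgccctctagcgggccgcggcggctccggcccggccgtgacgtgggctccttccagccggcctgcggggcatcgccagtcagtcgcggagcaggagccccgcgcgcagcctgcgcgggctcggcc
Ptprg, chr14:11553303-11553552, plus strand: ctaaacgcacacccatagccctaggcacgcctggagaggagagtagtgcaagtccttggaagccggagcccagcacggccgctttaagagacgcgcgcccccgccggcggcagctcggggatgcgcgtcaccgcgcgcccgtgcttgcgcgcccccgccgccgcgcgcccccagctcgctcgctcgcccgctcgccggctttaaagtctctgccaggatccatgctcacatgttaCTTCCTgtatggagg
The stretches were rich in G and C, at 79.2%, 81.2% and 68.4%, against a median of 52.0% over the most upstream stretch of 27025 genes, and held 38, 37 and 31 CG dinucleotides, against a median of 6. This did not set them apart from members that did not pass the test, since Ptprj had 79.2% and 34 CG dinucleotides, Ptpra 68.0% and 25, Ptpre 66.0% and 17 and Ptprs 64.0% and 15. Ptprk had 1 GAGGAA and no AGGAAG, Ptprg 1 AGGAAG, and Ptprm neither. Among members that did not pass, Ptprc aside, Ptprj had 2 of each, Ptpra 1 GAGGAA, Ptpro 1 AGGAAG, and Ptpre and Ptprs neither. Over all 27025 genes, 23.1% of such stretches held GAGGAA and 29.15% held AGGAAG. The 2 motifs share 5 letters and can overlap, and a match is a description of letters and not of binding.

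CD45 is the product of Ptprc. Its level was 6.52, 6.95 and 9.52 on YFP-positive arrays 1, 2 and 3, against 9.33, 9.23 and 9.37 on YFP-negative arrays 1, 2 and 3. Replicates 1 and 2 of the YFP-positive cells lay 2.79 and 2.36 below the YFP-negative mean on the log2 scale, and replicate 3 lay 0.21 above it, higher than any YFP-negative array. The YFP-positive SD of 1.62 was as large or larger in only 166 of 22180 genes (0.748%), while the YFP-negative SD was 0.07. With this spread the difference of -1.65 ± 0.76 did not pass (adjusted p = 0.353, limma), and its 95% interval ran from -3.50 to 0.21. Without YFP-positive replicate 3 the difference was -2.57 ± 0.17 (adjusted p = 0.00256, limma, in a fit where 2.33% of all genes were lower past the test), whereas without any one of the other 5 arrays it did not pass (adjusted p = 0.514 to 0.625). Without both replicate 3 arrays, an alternative chosen after seeing the data, it was -2.55 (adjusted p = 0.0145). Over the 20 leukocyte markers, none of which is a phosphatase of this family, the median distance from the YFP-negative mean was -2.07, -2.05 and 0.18 on YFP-positive arrays 1, 2 and 3. Not every marker followed this median. Vav1 and Fermt3, the 2 that passed as lower, still lay at -2.53 and -1.40 on replicate 3. On that array the distances of the 20 markers ran from that of Vav1 up to 2.72 for Itgb2. The endothelial markers had medians of 3.57, 3.66 and 3.28 on YFP-positive arrays 1, 2 and 3. The array with the Ptprc level of YFP-negative cells thus also carried the endothelial genes.

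For Ptprc the 250 bases before the more upstream of its 2 starts in the same table are shown in the same form. All 250 lay inside RefSeq's span of the gene, so they are not the stretch before its most upstream transcript.
Ptprc, chr1:138175306-138175555, minus strand: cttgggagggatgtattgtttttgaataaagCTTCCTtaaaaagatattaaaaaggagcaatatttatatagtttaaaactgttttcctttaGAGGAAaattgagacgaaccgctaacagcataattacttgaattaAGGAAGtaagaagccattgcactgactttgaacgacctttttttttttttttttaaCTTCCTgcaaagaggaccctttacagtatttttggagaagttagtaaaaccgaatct
At 31.6% G and C it was among the 2.59% of the 27025 stretches poorest in these bases, and it held 4 CG dinucleotides. It carried 1 GAGGAA and 3 AGGAAG, and at least 3 AGGAAG occurred in 1.22% of all stretches.

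The 8 genes whose pattern was most like that of Ptprc, by the root mean square difference of centred log2 values over the 6 arrays, were Cyfip2 (0.12), Apbb1ip (0.18), Cd44 (0.23), Ctss (0.24), Kif23 (0.26), Alox5ap (0.27), Stxbp2 (0.27) and Csf3r (0.28). Cyfip2 encodes a part of an actin-regulating complex, Apbb1ip an adaptor of integrin activation, Cd44 the hyaluronan receptor, Ctss a lysosomal protease and Csf3r the receptor of granulocyte colony-stimulating factor. Kif23 encodes a kinesin of cell division, Alox5ap a protein of leukotriene synthesis and Stxbp2 a protein of granule release. All 8 were 2.27 to 3.06 below their YFP-negative means in YFP-positive replicate 1 and 1.87 to 2.81 below them in replicate 2. In replicate 3 they lay between -0.35 and 0.19. None of these 8 passed limma's test (adjusted p = 0.202 to 0.366). The 8 were chosen for this pattern on the same 6 arrays, so these levels and test results follow from the choice.

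**Figure D2:**
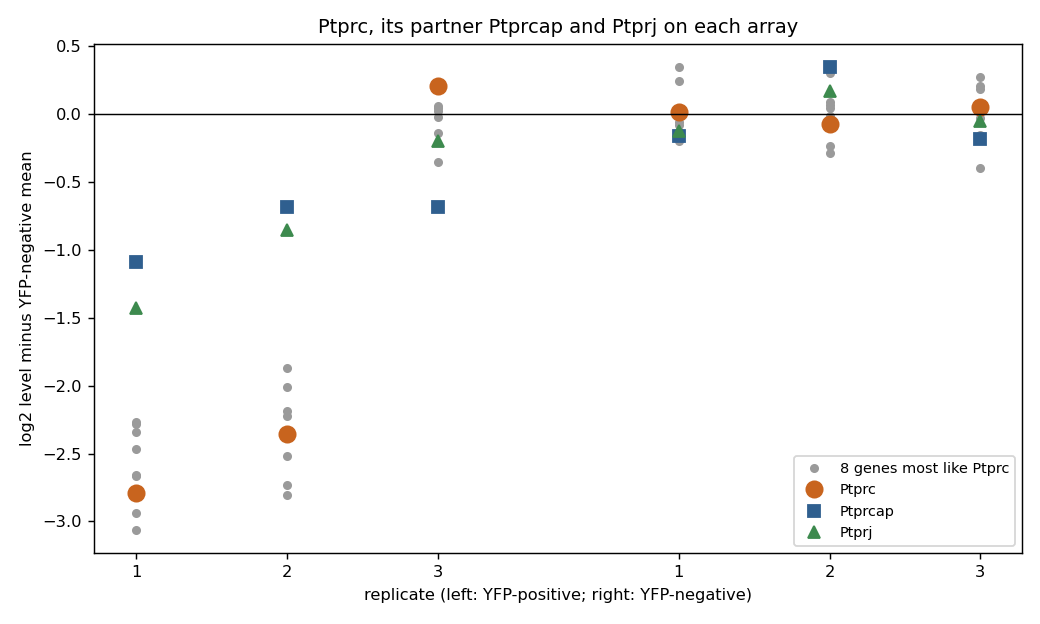
Log2 level minus the YFP-negative mean on each array for Ptprc (circles), Ptprcap (squares), Ptprj (triangles) and the 8 genes most like Ptprc (grey points). Ptprc is 2.79 and 2.36 below the YFP-negative mean on YFP-positive replicates 1 and 2 and 0.21 above it on replicate 3, where Ptprcap remains 0.68 below it.

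Ptprcap, the gene of the CD45-associated protein of lymphocytes, did not follow Ptprc from array to array. It measured 6.87, 7.27 and 7.28 on YFP-positive arrays 1, 2 and 3, against 7.79, 8.30 and 7.78 on YFP-negative arrays 1, 2 and 3. Every YFP-positive array was below every YFP-negative array, replicate 3 included, and the YFP-positive SD was 0.23, against 0.30 in YFP-negative cells. The difference was -0.82 ± 0.20 and did not pass (adjusted p = 0.0857, limma), with a 95% interval of -1.30 to -0.33. Across the 6 fits that left out 1 array the adjusted p was 0.119 to 0.207. The genes most like it in pattern were Copz1 (0.08), Sdhb (0.08), Dnah8 (0.09), Skap2 (0.09) and Mdh2 (0.09), of which Skap2 encodes an adaptor of Src family signalling in leukocytes. Skap2 measured 6.82 ± 0.27 in YFP-positive cells and 7.74 ± 0.26 in YFP-negative cells (SD, n = 3 each) and did not pass (adjusted p = 0.064, limma). These genes too were chosen for their pattern on the same arrays, so their likeness to Ptprcap follows from the choice.

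Ptpra and Ptpre encode a pair of close relatives with short outer parts, which activate Src family kinases. Ptpre measured 5.73, 6.69 and 6.90 on YFP-positive arrays 1, 2 and 3, against 7.46, 6.96 and 8.04 on YFP-negative arrays 1, 2 and 3. The populations were apart by little, the highest YFP-positive value being 6.90 and the lowest YFP-negative value 6.96. The difference of -1.05 ± 0.40 did not pass (adjusted p = 0.248, limma). Ptpra measured 7.92, 7.23 and 7.24 in YFP-positive cells, against 7.50, 7.71 and 7.03 in YFP-negative cells, and the populations overlapped. Its difference was 0.05 ± 0.26 (adjusted p = 0.959, limma), with a 95% interval of -0.59 to 0.69.

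Ptprj, Ptpro and Ptprb belong to the subfamily with fibronectin repeats and a single phosphatase domain. Ptprj, whose product CD148 is found on leukocytes, platelets and endothelium, measured 4.51, 5.08 and 5.74 on YFP-positive arrays 1, 2 and 3, against 5.81, 6.11 and 5.89 on YFP-negative arrays 1, 2 and 3. YFP-positive replicate 3 was again the nearest to the YFP-negative arrays, 0.20 below their mean, where replicate 1 was 1.43 below it. The difference of -0.82 ± 0.31 did not pass (adjusted p = 0.246, limma), nor did it without YFP-positive replicate 3 (adjusted p = 0.0516). Ptpro, known from podocytes and macrophages, was at 2.70 to 2.83 in YFP-positive and 2.77 to 2.78 in YFP-negative cells, below the median of all probes on every array. Its difference was -0.00 with an interval of -0.24 to 0.23 (adjusted p = 0.998, limma). In contrast to both, Ptprb, the endothelial phosphatase that acts on VE-cadherin and Tie2, measured 9.86, 9.78 and 9.64 in YFP-positive cells, against 3.47, 3.28 and 3.29 in YFP-negative cells, and rose by 6.41 ± 0.12 (adjusted p = 3.87e-05, limma). Its YFP-negative levels lay below the median of all probes, so this size may understate the change.

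Ptprs, of the LAR subfamily, encodes a receptor of heparan and chondroitin sulfate proteoglycans. It measured 4.28, 4.41 and 4.17 on YFP-positive arrays 1, 2 and 3, against 5.36, 5.07 and 4.50 on YFP-negative arrays 1, 2 and 3. The populations did not overlap, and YFP-negative replicate 3 was the closest to the YFP-positive arrays. The difference of -0.69 ± 0.23 did not pass (adjusted p = 0.191, limma), and without YFP-negative replicate 3 the adjusted p was 0.0551. Of its relatives, Ptprf measured 4.49 ± 0.21 in YFP-positive cells and 3.88 ± 0.04 in YFP-negative cells (SD, n = 3 each) and did not pass (adjusted p = 0.0674, limma), and Ptprd was below the median of all probes throughout.

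**Figure D3:**
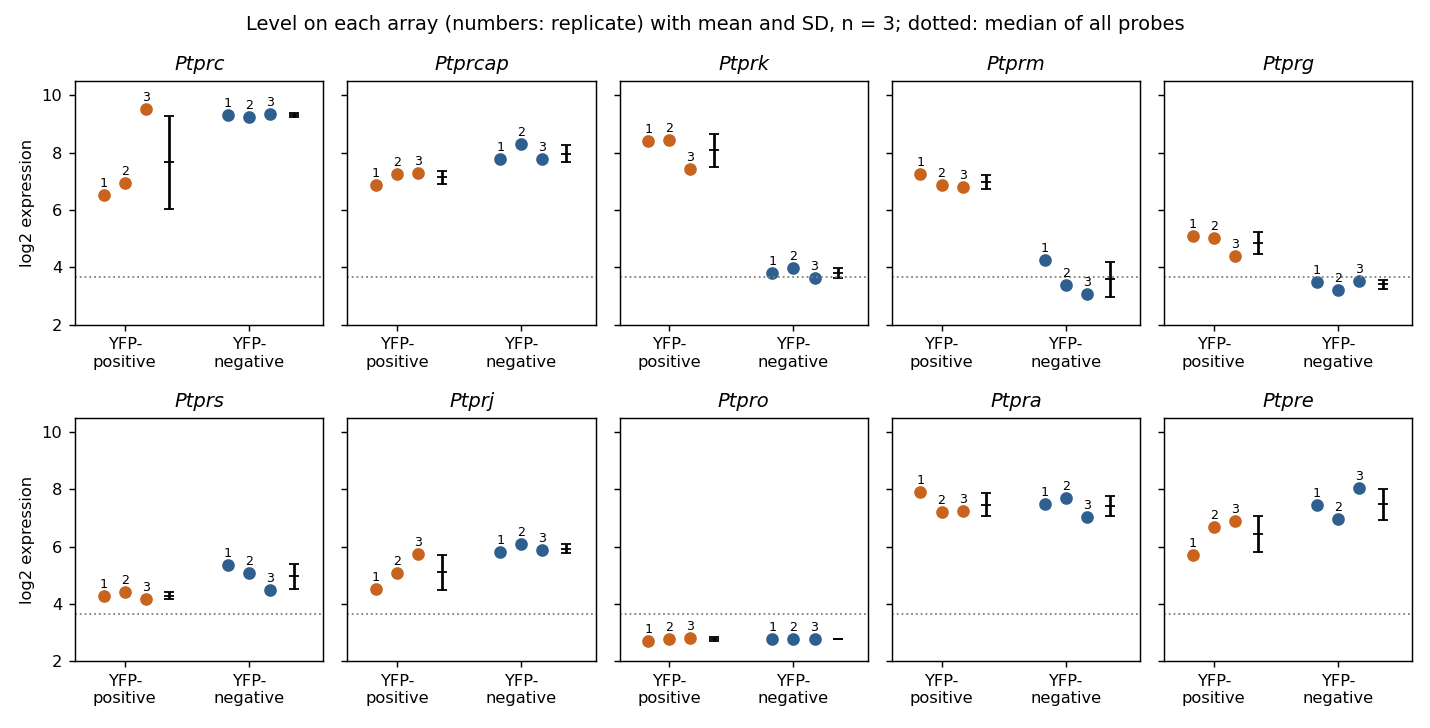
Log2 expression of the 10 genes on each array, YFP-positive arrays on the left of each panel and YFP-negative arrays on the right, with replicate numbers above the points and the mean and SD (n = 3) beside them; the dotted line is the median of all probes (3.65). Ptprk, Ptprm and Ptprg stand higher on all YFP-positive arrays, and Ptprc is split between YFP-positive replicates 1 and 2 (6.52 and 6.95) and replicate 3 (9.52).

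Taking the 10 genes as a group, 7 had populations that did not overlap, 3 higher and 4 lower in YFP-positive cells. Over all genes 22.7% did not overlap, 10.8% higher and 11.9% lower. The SD between YFP-positive arrays exceeded that between YFP-negative arrays in 7 of the 10, against 53.2% of all genes, and its median was 0.39 over the 10 and 0.19 over all genes. The median SD between YFP-negative arrays was also larger over the 10, at 0.24 against 0.18 over all genes. Besides Ptprc, the YFP-positive SD was widest in Ptpre (0.62), Ptprj (0.62) and Ptprk (0.57), and in Ptprk the array that stood apart, replicate 3, was the lowest and not the highest.

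Of the other 12 receptor phosphatases of the mouse listed for comparison, 11 had a value. Ptprb rose, 0 fell and 10 did not pass, with a median difference of 0.06. Of these 10, Ptprf and Ptpru had the smallest p. The rest had differences between -0.07 and 0.19.

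**Figure D4:**
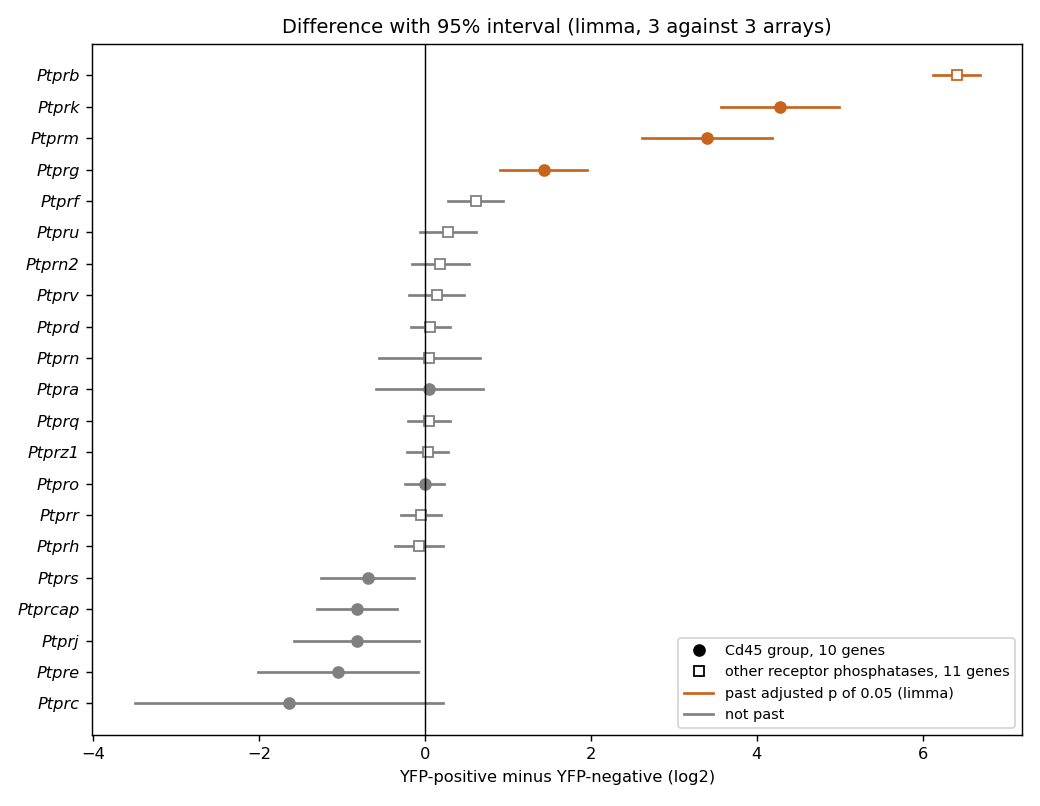
Difference between YFP-positive and YFP-negative cells on the log2 scale for 21 genes, with the 95% interval from limma; filled circles are the 10 genes described and open squares the 11 other receptor phosphatases, coloured where the adjusted p was under 0.05. Ptprb, Ptprk, Ptprm and Ptprg lie apart on the right, and the interval of Ptprc (-3.50 to 0.21) is the widest.

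Phosphatases of the cytoplasm moved both ways. Of 17 non-receptor tyrosine phosphatase genes, 2 rose, 2 fell and 13 did not pass, with a median of -0.04. In the unmoderated model 0 of the 17 passed. Ptpn14, a regulator of Hippo signalling and of cell contacts, measured 6.51 ± 0.33 in YFP-positive cells and 4.59 ± 0.26 in YFP-negative cells (SD, n = 3 each), a rise of 1.91 ± 0.21 (adjusted p = 0.0081, limma). Ptpn12, which acts on focal adhesion proteins, rose by 0.93 ± 0.13 (adjusted p = 0.0161, limma). Ptpn2, an inhibitor of cytokine signalling through JAK kinases, fell by 1.80 on the log2 scale, to 4.77 ± 0.14 in YFP-positive cells against 6.56 ± 0.51 in YFP-negative cells (SD, n = 3 each; adjusted p = 0.0196, limma). Ptpn18 fell by 0.76 (adjusted p = 0.0209, limma). Ptpn6, which encodes the leukocyte phosphatase SHP-1, repeated the split of Ptprc in part, at 5.15, 5.04 and 7.09 on YFP-positive arrays 1, 2 and 3, against 7.67, 7.56 and 7.41 on YFP-negative arrays 1, 2 and 3. It did not pass (adjusted p = 0.158, limma). Ptpn22, a lymphocyte phosphatase, measured 4.51 ± 0.86 in YFP-positive cells and 6.41 ± 0.28 in YFP-negative cells (SD, n = 3 each; adjusted p = 0.0722, limma).

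Among the kinases on which CD45 acts and their regulators, 10 were analysed here. Of these, 2 rose, 0 fell and 8 did not pass, with a median of 0.48. Yes1, a Src family kinase of many tissues, measured 8.14, 7.58 and 7.28 in YFP-positive cells, against 2.97, 2.88 and 3.10 in YFP-negative cells, a rise of 4.68 ± 0.23 (adjusted p = 0.000395, limma) whose size may be understated, since the YFP-negative levels lay below the median of all probes. Jak1 rose by 1.21 ± 0.12 (adjusted p = 0.00564, limma). Fyn measured 6.65 ± 0.77 in YFP-positive cells and 5.70 ± 0.23 in YFP-negative cells (SD, n = 3 each), and Csk, the kinase that sets the inhibitory phosphate which CD45 removes, measured 4.70 ± 0.35 in YFP-positive cells and 5.45 ± 0.35 in YFP-negative cells. Neither passed (adjusted p = 0.289 and 0.187, limma).

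Of 9 measured partners of CD45 and regulators of its splicing, 0 passed limma's test, although 4 were lower by the unadjusted p (under 0.05) and 0 passed in the unmoderated model, with a median of -0.46. Hnrnpll, which drives skipping of the variable exons of Ptprc, measured 7.06 ± 0.09 in YFP-positive cells and 6.80 ± 0.33 in YFP-negative cells (SD, n = 3 each; adjusted p = 0.588, limma). It is outside the naming rule and was chosen after its values were seen, and 1 probe level per gene does not separate the isoforms of Ptprc. Ptbp1, another splicing factor, differed by -0.59 ± 0.13 (adjusted p = 0.0687, limma). Of 20 ligands and substrates of the other receptor phosphatases, 1 rose, 0 fell and 19 did not pass, with a median of 0.23. The one that rose was Hspg2, the gene of perlecan, a heparan sulfate proteoglycan of basement membranes, which measured 8.53, 8.85 and 7.95 in YFP-positive cells, against 4.62, 4.44 and 4.66 in YFP-negative cells (3.87 ± 0.24, adjusted p = 0.000912, limma). Jup and Gab1, a junction protein and a signalling adaptor, differed by 1.46 ± 0.30 and 1.44 ± 0.30 and did not pass (adjusted p = 0.0542 and 0.0563, limma).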

How the data were processed

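The deposited table holds log2 expression values for 41345 probes on 6 arrays; per the labels' protocols, the Ovation Pico V2 system amplified 500 pg of total RNA from each sample before labelling with biotin. Partek is named, without a version, per the submitters' processing notes. How the background was corrected and the arrays normalized is not given in the sources used here, nor is a genome build. The log2 base was inferred from the values (1.53 to 13.7); array medians were 3.62 to 3.68. No detection calls were used, and the number of arrays limits the precision.

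Of the probes, 25335 were annotated and 23521 had 1 symbol; 1814 had several and 16010 were unnamed here. RefSeq identifiers changed 0 symbols. The probe with the highest mean represented each of 22180 genes. Pearson's r across genes was 0.946 to 0.968 within and 0.888 to 0.924 between populations.

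Population differences were fitted in R 4.3.3 with limma 3.58.1 (lmFit and eBayes, population as the only term, two-sided, Benjamini-Hochberg over all 22180 genes), after a check on simulated data. No set test was run. Alternatives left out each array, added the replicate number as a block, averaged probes, applied quantile normalization, left out dim genes, dropped the moderation, added an intensity trend or weighted arrays.

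The 10 genes, the comparison lists and the tests were chosen with earlier results of these data known. Genes named beyond the 10 are, per list, those past the test (at most 8) and up to 2 more of smallest p, the 8 and 5 genes most like Ptprc and Ptprcap without predicted genes, and a few markers. Vav1, Fermt3, Kit, Itgb2 and the genes of smallest p in each marker list come from the markers. Ptprz1, Ptprd, Hnrnpll, Hlf, Cd48, Slamf1, Procr, Mecom and the markers of other cell types that did not shift were added outside the rule. RefSeq promoters (GRCm38.p6) matched 9 of the 10 genes; Ptprcap was the exception.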

Additional observations from a re-analysis of the deposited data

How the results depend on the processing

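Ptprk kept its direction and call under all 14 alternatives. Ptprm did so under 13 and lost its call with the unmoderated model (3.40, adjusted p = 0.0694). Ptprg lost its call with that model (1.43, adjusted p = 0.123) and with the replicate number as a block (1.43, adjusted p = 0.065); leaving out 1 array gave 1.31 to 1.66. Ptprc differed by -2.57 to -1.07 when 1 array was left out and gained a call only without YFP-positive replicate 3 and, among alternatives added after seeing the data, without both replicate 3 arrays (-2.55). The other 6 genes gained no call under any alternative run. The members past the test as higher numbered 2 with the replicate block and 1 with the unmoderated model, and 2 to 3 without 1 array. Those past it as lower numbered 0 to 1 without 1 array and 1 without both replicate 3 arrays. Over all genes, 639 were higher and 435 lower; leaving out 1 array gave 319 to 668 higher and 111 to 517 lower, the replicate block 412 and 168, and the unmoderated model 145 and 35. The causes were not tested. Same-numbered arrays deviated from their population means with correlations of 0.098, 0.081 and 0.167 across genes, and each array correlated best with its own number. The labels state no pairing, so the main fit did not pair samples by number. Whether same-numbered samples shared a source was not tested. With 3 arrays a group and the spread of these genes between arrays, the differences of Ptprcap, Ptprs, Ptprj and Ptpre could not be settled. Levels below the median of all probes limit the folds of Ptprg and Ptprm.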

Other observations

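Some partners of these phosphatases differed between replicates more than between populations. Thbs1, the gene of thrombospondin-1, a ligand of the Ptprj product, measured 3.63, 3.88 and 8.65 on YFP-positive arrays 1, 2 and 3, against 3.60, 3.78 and 7.30 on YFP-negative arrays 1, 2 and 3, so that replicate 3 was high in both populations. Fgr, a Src family kinase of myeloid cells, measured 3.86, 3.43 and 6.95 in YFP-positive cells, against 3.20, 3.54 and 3.36 in YFP-negative cells, and was high on YFP-positive replicate 3 alone. Neither passed limma's test (adjusted p = 0.932 and 0.544). Both were chosen after their values were seen. The neutrophil markers, whose mean was highest on the replicate 3 array of each population, are given with the results above.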
